A study of Mus musculus with 2 samples.

Results

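The cells described here are dividing mesenchymal cells of the postnatal mouse lung. A barcode was counted as one when at least 500 genes were detected, under 10% of its unique molecular identifiers (UMIs, each standing for 1 captured RNA molecule) were mitochondrial, Col1a1, Col1a2 and Col3a1 together had at least 5 UMIs, Epcam, Pecam1 and Ptprc together had at most 1, and Mki67, Top2a and Birc5 together had at least 3. Of 9012 deposited barcodes, 101 met the rule, 54 of 4551 in the mutant library and 47 of 4461 in the control library. The study made single-cell RNA libraries from lung epithelial, immune, endothelial and mesenchymal cells sorted by FACS at postnatal day 10, and its title names Nkx2-1, a homeobox factor of lung epithelium, in alveolar type 1 cells. The mutant library is labelled Nkx2-1;Aqp5 with genotype mutant, and the control library Nkx2-1 with genotype control. Aqp5 is a water channel gene of type 1 cells. The labels give neither the driver of the mutation, nor the number of animals pooled, nor what was mixed in which proportion after the sort. With 1 library in each group no difference between genotypes could be tested, so levels carry exact 95% Poisson or binomial intervals that cover counting error only.

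Fibroblasts, myofibroblasts, pericytes and smooth muscle cells make up the lung mesenchyme, which lays down the collagen and elastin of the growing alveolar wall. A dividing cell first copies its DNA in S phase, when the replication machinery and nucleotide-making enzymes are in demand, and then passes through G2 into mitosis, when cyclin B with Cdk1 starts division and the anaphase-promoting complex ends it. Many S phase genes are driven by E2F factors. Many G2 and M phase genes are controlled by the DREAM and MuvB complexes, which bind the sequence called CHR in their promoters. CCAAT boxes are a separate motif often found in promoters of G2 and M phase genes.

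The chosen cells were deeper than their neighbours. Their median was 7630.5 UMIs in the mutant library and 10614 UMIs in the control library, against 5447 and 6061 UMIs in the 850 mutant and 977 control mesenchymal cells with no UMI of Mki67, Top2a or Birc5, called non-cycling here. Median mitochondrial shares in the cycling cells were 4.38% in the mutant library and 3.32% in the control library. The libraries shared 27 barcodes, none of them among the 101 cells. The other-lineage markers of the rule were close to absent by construction, with 0, 0 and 1 UMIs of Epcam, Pecam1 and Ptprc summed over the mutant cells and 2, 1 and 0 over the control cells. A Scrublet score set to the expected doublet rate marked 4 of the 54 mutant cells and 0 of the 47 control cells. It marked 7 of the 850 mutant and 23 of the 977 control non-cycling cells. Of all filtered barcodes, 3.53% in the mutant and 3.31% in the control library were marked. All marked cells stayed in.

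The marker genes of the label cannot test it. The cells were chosen by the measured UMIs of these genes, so their values are given as description. Mki67, the proliferation antigen that coats mitotic chromosomes, was found in 98.1% of mutant and 93.6% of control cycling cells. Top2a, which untangles replicated DNA, was found in 88.9% of mutant and 80.9% of control cells, and Birc5, the survivin subunit of the chromosomal passenger complex, in 79.6% and 91.5%. Col1a2 was found in 100% of the cells of both libraries. The 3 cell cycle genes together had a median of 16.5 UMIs per cell in the mutant library, with a range of 3 to 52, and a median of 13 UMIs per cell in the control library, with a range of 3 to 41. Most cells lay far inside the limit, with 39 mutant and 29 control cells at 10 or more UMIs. Just inside it, 6 mutant and 6 control cells had exactly 3 UMIs. Just outside it, 22 mutant and 5 control cells had exactly 2.

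Gated mesenchymal cells in cycle made up 54 of 1021 cells in the mutant library (5.29%, 95% interval 3.998 to 6.84%) and 47 of 1084 cells in the control library (4.34%, 3.20 to 5.72%). The 2 intervals overlapped. At an equal 2000 UMIs per cell, 3.92% of mutant cells (2.81 to 5.30%) and 2.68% of control cells (1.80 to 3.82%) still reached 3 UMIs. With the lower limit of 1 UMI, the unthinned shares were 16.7% of mutant cells (14.5 to 19.2%) and 9.87% of control cells (8.16 to 11.8%). At 2000 UMIs per cell the 1 UMI shares were 10.1% (8.31 to 12.1%) in the mutant library and 5.44% (4.17 to 6.96%) in the control library.

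Ciliated epithelial cells, a type that should not divide, served as a comparison; whether UMIs of these genes in them are free RNA, doublets or division was not tested. Of all gated ciliated cells, 4 of 49 reached 3 UMIs in the mutant library (8.16%, 2.27 to 19.6%) and 2 of 94 in the control library (2.13%, 0.259 to 7.48%), each of them with at least 11841 UMIs in all in the mutant and 23087 UMIs in the control library. Among those of at most 10000 UMIs, a limit chosen after seeing the data, 0 of 37 mutant cells and 0 of 76 control cells reached 3 UMIs, which allows shares of up to 8.11% and 3.95% (3 cells of the total). At 1 UMI the ciliated shares were 13.5% (4.54 to 28.8%) in the mutant library at a median of 4859 UMIs and 6.58% (2.17 to 14.7%) in the control library at a median of 6153 UMIs. Of all ciliated cells 22.4% (11.8 to 36.6%) in the mutant library and 7.45% (3.05 to 14.7%) in the control library had 1 UMI or more. The mesenchymal shares lay inside the intervals of all ciliated cells at both limits. At 3 UMIs the control share of 4.34% was above the 3.95% set for the shallower ones but below their exact upper limit of 4.74%. The difference between the libraries in either share is not read as a difference in dividing cells. At 2000 UMIs per cell, ciliated cells held a median of 5 UMIs of the listed G2 and M phase genes in the mutant library (0 to 35) and 5.5 UMIs in the control library (0 to 27). Under the same limit of 3 UMIs, gated endothelial cells were in cycle at 19.3% (15.9 to 23.1%) in the mutant library and 8.78% (6.61 to 11.4%) in the control library, and gated epithelial cells at 19.5% (17.9 to 21.1%) and 2.49% (1.62 to 3.65%). The labels do not say how the sorted cells were pooled, and the part of pooling in these shares was not tested.

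Genes of G2 and M phase stood highest in the dividing cells, in the company of the 3 genes that chose them. Each gene was summed over the cells of a class and expressed as CPM, the gene's UMIs on a scale where every class has the same total, and a gene was called measured with at least 20 UMIs over the compared classes and called different at 2-fold or more. Of 63 listed G2 and M phase genes other than the 3 of the rule, 59 of 59 measured in the mutant library and 61 of 61 in the control library were at least 2-fold higher in cycling than in non-cycling cells, with median log2 ratios of 6.64 and 6.98. Over all measured genes 8.25% in the mutant library and 8.38% in the control library were that much higher, and 10.7% and 12.5% that much lower. These values describe what came with the rule's genes and are not tests.

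Ccnb1, the cyclin B1 that activates Cdk1 at mitotic entry, had 146 CPM (113 to 187) in cycling and 0.203 CPM in non-cycling cells of the mutant library, and 235 CPM (194 to 281) and 0.321 CPM in those of the control library. Hmmr, a spindle assembly protein, had 254 CPM (209 to 305) in cycling and 0.405 CPM in non-cycling mutant cells, and 97.1 CPM (71.6 to 129) and 0.481 CPM in control cells. Ube2c, the ubiquitin-conjugating enzyme of the anaphase-promoting complex, had 569 CPM in cycling and 3.85 CPM in non-cycling mutant cells, and 819 and 2.24 CPM in control cells. Non-cycling cells were therefore almost free of these RNAs in both libraries. The most abundant listed genes had a base level outside the cycle. H2afz, which encodes the histone variant H2A.Z, had 3671 CPM in cycling and 473 CPM in non-cycling mutant cells, and 3805 and 484 CPM in control cells. Hmgb2, a chromatin protein, had 2307 CPM in cycling and 98.9 CPM in non-cycling mutant cells, and 2534 and 110 CPM in control cells.

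S phase genes were higher by smaller ratios. Of 55 listed, 45 of 49 measured in the mutant library and 49 of 51 in the control library were at least 2-fold higher in cycling cells, with median log2 ratios of 3.07 and 2.96. Tk1, the thymidine kinase that salvages thymidine, had 228 CPM (186 to 278) in cycling and 1.22 CPM in non-cycling mutant cells, and 356 CPM (305 to 412) and 1.44 CPM in control cells. Rrm2, the regulated subunit of ribonucleotide reductase, had 176 CPM (139 to 220) in cycling and 2.43 CPM in non-cycling mutant cells, and 376 CPM (324 to 434) and 5.61 CPM in control cells. Pcna, the sliding clamp of DNA polymerase, had a higher base level, with 144 CPM in cycling and 21.9 CPM in non-cycling mutant cells, and 237 and 37.8 CPM in control cells.

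The promoters of Ccnb1 and Hmmr, the listed G2 and M phase genes with the largest cycling to non-cycling ratios in the mutant library, are shown with those of Rrm2, the replication-dependent histone gene Hist1h1e and Tk1, whose window holds neither motif. All 5 genes were higher in the cycling cells of both libraries. Windows are 250 bases before to 50 after the RefSeq start in build GRCm38.p6, on the gene's strand. Capitals mark CCAAT (read as ATTGG on the other strand) and the CHR motif TTTGAA, searched on both strands.
Ccnb1, chr13:100786437-100786736, minus strand: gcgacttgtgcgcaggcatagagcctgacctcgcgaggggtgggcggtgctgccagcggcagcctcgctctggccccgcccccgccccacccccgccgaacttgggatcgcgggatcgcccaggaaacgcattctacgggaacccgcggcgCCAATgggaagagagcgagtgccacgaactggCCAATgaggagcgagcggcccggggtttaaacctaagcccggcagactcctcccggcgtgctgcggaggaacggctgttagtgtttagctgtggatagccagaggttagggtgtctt
Hmmr, chr11:40733388-40733687, minus strand: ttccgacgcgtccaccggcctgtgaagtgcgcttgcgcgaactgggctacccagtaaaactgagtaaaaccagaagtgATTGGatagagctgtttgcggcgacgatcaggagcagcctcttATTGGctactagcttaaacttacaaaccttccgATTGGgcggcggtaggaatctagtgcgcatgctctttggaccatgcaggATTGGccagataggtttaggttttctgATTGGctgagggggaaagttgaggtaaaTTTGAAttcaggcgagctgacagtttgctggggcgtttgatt
Rrm2, chr12:24708004-24708303, plus strand: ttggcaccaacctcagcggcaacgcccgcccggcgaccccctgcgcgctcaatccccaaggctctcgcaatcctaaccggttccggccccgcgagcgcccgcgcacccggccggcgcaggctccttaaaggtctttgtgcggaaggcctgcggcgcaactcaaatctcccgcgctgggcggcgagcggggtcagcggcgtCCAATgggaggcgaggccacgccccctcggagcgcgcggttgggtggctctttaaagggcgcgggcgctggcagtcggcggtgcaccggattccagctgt
Tk1, chr11:117825965-117826264, minus strand: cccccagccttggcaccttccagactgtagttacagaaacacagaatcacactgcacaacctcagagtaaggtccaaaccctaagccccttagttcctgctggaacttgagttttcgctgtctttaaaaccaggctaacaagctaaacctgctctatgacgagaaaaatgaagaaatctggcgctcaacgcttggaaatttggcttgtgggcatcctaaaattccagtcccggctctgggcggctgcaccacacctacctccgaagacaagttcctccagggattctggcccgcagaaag
Hist1h1e, chr13:23622509-23622808, minus strand: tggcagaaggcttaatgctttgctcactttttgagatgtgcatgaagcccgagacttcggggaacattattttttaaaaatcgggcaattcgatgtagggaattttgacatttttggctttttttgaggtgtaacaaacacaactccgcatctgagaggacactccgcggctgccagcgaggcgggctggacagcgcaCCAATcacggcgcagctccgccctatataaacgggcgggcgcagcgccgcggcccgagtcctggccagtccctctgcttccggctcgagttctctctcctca

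The 2 CCAAT boxes of Ccnb1 began 99 and 67 bases before the start. Hmmr had 5 on the opposite strand, and its TTTGAA began at base 9 after the start. Rrm2 and Hist1h1e had 1 CCAAT each, 50 and 52 bases before their starts. Windows of the same length were found for 52 of the 63 G2 and M phase genes, and 36 of them (69.2%) held TTTGAA, against 18.2% of 27025 promoters. CCAAT was in 42 of the 52 (80.8%), against 38.0% of all promoters, and both motifs were in 32 (61.5%), against 7.16%. The S phase list differed. Of its 40 matched promoters, 6 (15%) held TTTGAA, 24 (60%) held CCAAT and 8 (20%) held the E2F-like TTTNGCGC, in which N is any base, which was in 1.39% of all promoters and in 2 of the 52 G2 and M phase promoters (3.85%). CCAAT was in 29 of 31 matched promoters of clustered histone genes (93.5%). None of these motifs contains another, and a match is a run of letters, not a bound site.

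The cells differed among themselves in which program they held. At 2000 UMIs per cell the median cycling cell had 7.5 S phase UMIs (range 0 to 28) and 31.5 G2 and M phase UMIs (range 1 to 89) in the mutant library, and 9 (0 to 29) and 38 (0 to 78) in the control library. Non-cycling cells had medians of 1 and 2 UMIs of these lists in both libraries. Without thinning the medians were 30.5 and 119 UMIs in mutant cycling cells and 53 and 158 UMIs in control cycling cells. Most cells held more G2 and M phase than S phase UMIs, 45 of 54 in the mutant library and 40 of 47 in the control library. The reverse held in 8 mutant and 6 control cells, and 1 cell in each library had equal numbers. The cut between them is a position on a range: 5 mutant and 6 control cells had numbers within 2 UMIs of each other. The 3 genes of the rule are themselves highest in G2 and mitosis, so the rule favours such cells.

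**Figure D1:**
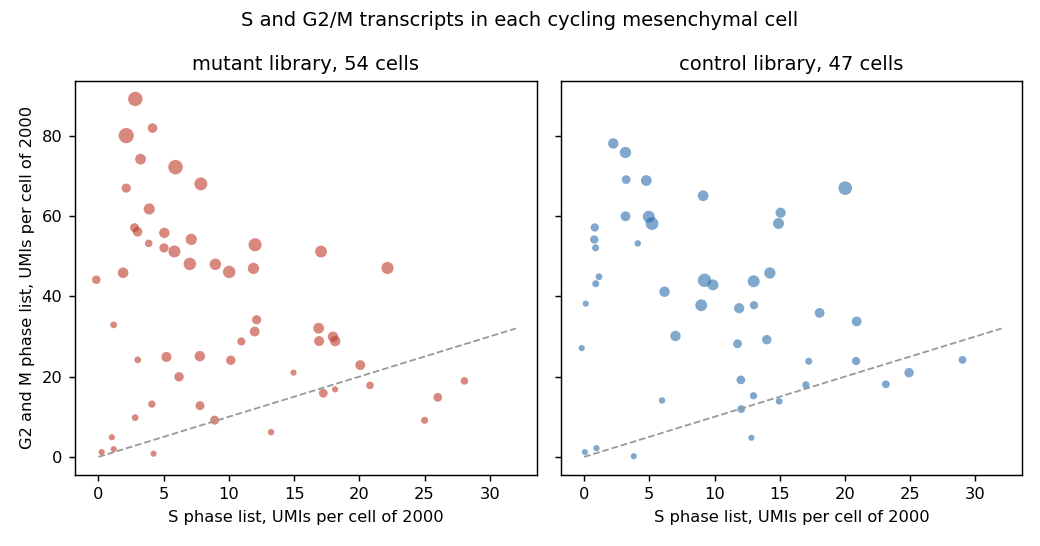
S phase list UMIs (x axis) against G2 and M phase list UMIs (y axis) in each cycling mesenchymal cell after thinning to 2000 UMIs, mutant library left and control library right. Point area grows with the cell's UMIs of Mki67, Top2a and Birc5, points are slightly jittered, and the dashed line marks equal numbers. Of 54 mutant cells 45 lie above the line, and of 47 control cells 40.

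Clustered histone genes, which make the bulk histones of new chromatin and whose RNAs mostly lack a poly(A) tail, were not used by that split. Their summed level in the mutant library was 657 CPM (475 to 885) in the 8 cells with more S phase UMIs and 3455 CPM (3267 to 3652) in the 45 with more G2 and M phase UMIs. In the control library it was 369 CPM (234 to 553) in the 6 and 914 CPM (825 to 1010) in the 40. In both libraries the intervals did not overlap, and the summed histone RNAs captured by this poly(A)-based kit were higher in the cells leaning to G2 and mitosis. These intervals do not cover the spread between cells, which was wide. In what follows, histone UMIs are unthinned, while S phase and G2 and M phase UMIs are thinned, so they are not on the same scale. The mutant cells with most G2 and M phase UMIs, 89, 82 and 80, held 1 histone UMI each, and the next, at 74, held 19. The mutant cell with most histone UMIs, 86 of its 11552 unthinned UMIs, had 17 S phase and 51 G2 and M phase UMIs after thinning. The sums therefore do not place a histone peak in G2 or mitosis.

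The mixed list of D cyclins, Cdk inhibitors and pocket proteins did not follow a single direction. Of its 24 genes, 5 of 22 measured in the mutant library were at least 2-fold higher in cycling cells and 4 at least 2-fold lower. In the control library 6 and 3 of 23 were. The inhibitors were not counted apart from the rest of the list. Cdkn2d, the Ink4 inhibitor p19, had 206 CPM in cycling and 27.2 CPM in non-cycling mutant cells, and 247 and 31.3 CPM in control cells. Cdkn2c, the Ink4 inhibitor p18, had 272 and 46.2 CPM in these classes of the mutant library and 394 and 101 CPM in those of the control library. Rbl1, the pocket protein p107 and an E2F target, had 75.4 CPM in cycling and 5.47 CPM in non-cycling mutant cells, and 54.6 and 4.01 CPM in control cells. These 3 brakes of the cycle were higher in the dividing cells of both libraries. In the other direction, Ccnd2, the cyclin D2 that carries growth signals into G1, had 199 CPM in cycling and 465 CPM in non-cycling mutant cells, and 196 and 388 CPM in control cells. Gas6, a growth arrest-specific ligand, had 41.1 CPM in cycling and 133 CPM in non-cycling mutant cells, and 40.4 and 134 CPM in control cells. Mxd3, a Myc antagonist, had 146 CPM in cycling mutant cells and no UMI in non-cycling ones, and 281 and 0.321 CPM in control cells, whereas its relative Mxd4 had 135 and 279 CPM in cycling and non-cycling mutant cells, and 84.9 and 211 CPM in control cells.

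Matrix and differentiation genes were mostly lower in the dividing cells. Of 20 listed fibrillar and other collagens, 13 of 17 measured in the mutant library and 15 of 15 in the control library were lower, with median log2 ratios of -0.62 and -0.71, and 5 and 6 of them were at least 2-fold lower. Over all measured genes 5652 of 10912 were lower in the mutant library and 5936 of 11102 in the control library. Eln, elastin, had 7930 CPM (7668 to 8198) in cycling and 11604 CPM in non-cycling mutant cells, and 7576 CPM (7336 to 7823) and 14030 CPM in control cells. Mfap4, a glycoprotein of elastic fibres, had 896 CPM in cycling and 3207 CPM in non-cycling mutant cells, and 621 and 2972 CPM in control cells. Aspn, asporin, had 258 CPM in cycling and 1074 CPM in non-cycling mutant cells, and 144 and 1677 CPM in control cells. The rule's own Col1a2 had 1595 CPM in cycling and 2808 CPM in non-cycling mutant cells, and 1237 and 2604 CPM in control cells. These Col1a2 values are description only. The same raw collagen limit asks for a higher CPM in the shallower non-cycling cells. Contractile genes lay near 0, with medians of -0.15 in the mutant library and -0.04 in the control library, and Acta2, smooth muscle actin, had 3121 CPM in cycling and 2803 CPM in non-cycling mutant cells, and 4058 and 3679 CPM in control cells.

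Genes of alveolar fibroblasts, the lipid-holding fibroblasts of the alveolar wall, had median log2 ratios of -1.46 in the mutant library and -1.86 in the control library, and 14 and 13 of 16 were at least 2-fold lower. Npnt, the matrix protein nephronectin, had 121 CPM in cycling and 362 CPM in non-cycling mutant cells, and 34.4 and 237 CPM in control cells. Genes of adventitial fibroblasts had medians of -1.66 and -1.38, with 9 of 13 measured at least 2-fold lower in each library. Dcn, the proteoglycan decorin, had 4.57 CPM in cycling and 128 CPM in non-cycling mutant cells, and 28.3 and 146 CPM in control cells. The pericyte list split the libraries, with a median of 0.03 in the mutant and -1.09 in the control library. Against only those non-cycling cells at least as deep as the median cycling cell, the alveolar fibroblast medians were -1.70 in the mutant library and -0.42 in the control library. Over all measured genes 508 were at least 2-fold higher and 378 at least 2-fold lower in cycling cells of both libraries, of 10616 measured in both, while 24 were higher in the mutant and lower in the control library and 34 the other way round.

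**Figure D2:**
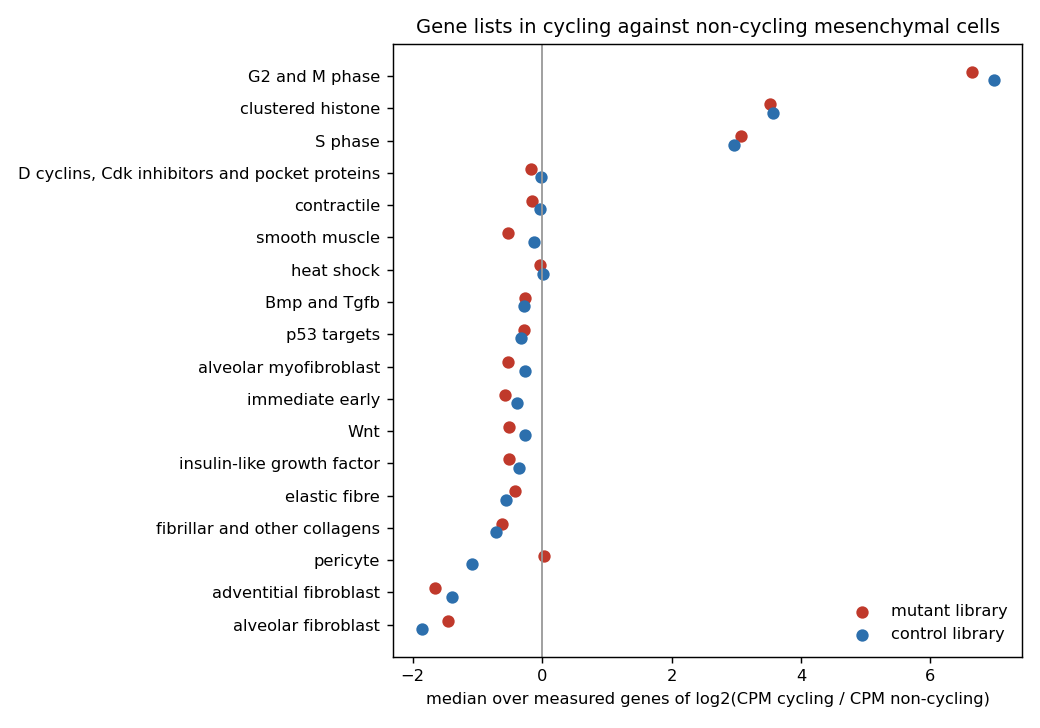
Median over measured genes of log2(CPM in cycling / CPM in non-cycling mesenchymal cells) for 18 gene lists, mutant library in red and control library in blue. G2 and M phase, histone and S phase lists lie right of 0 at 2.96 to 6.98, and the adventitial and alveolar fibroblast lists farthest left at -1.38 to -1.86.

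The share in cycle differed between mesenchymal clusters. Mesenchymal cells were clustered with the cell cycle genes, and every other gene at least 2-fold higher in cycling cells of both libraries, left out. Clustered alone, the mutant library had its cycling cells in cluster 3 at 21 of 183 cells (11.5%, 95% interval 7.25 to 17.0%) and the control library in cluster 1 at 29 of 250 cells (11.6%, 7.91 to 16.2%). These clusters held 38.9% of the mutant cycling cells (25.9 to 53.1%) and 61.7% of the control ones (46.4 to 75.5%), but 17.9% of mutant and 23.1% of control gated cells. The mutant cluster was also the deepest of its library, with a median of 6413 UMIs against 5021 to 5816.5 in the others. The control cluster had 8596.5 UMIs against 3870 to 9805.5, and only the epithelial-like cluster was deeper. At 2000 UMIs per cell, an alternative chosen after seeing the data, the shares of both clusters were 8.74% (5.08 to 13.8%) in the mutant and 7.6% (4.64 to 11.6%) in the control library, against 0 to 8% and 0 to 2.56% in the other clusters. Of their 10 leading genes 7 were the same, Htra1, Stc1, Cd248, Pdgfra, Aard, Cd34 and S100b. Pdgfra is the platelet-derived growth factor receptor of fibroblasts and myofibroblasts, Htra1 a secreted protease and Cd34 a surface sialomucin. Neither cluster met the marker rule for a name, so both are left unnamed.

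Alveolar fibroblast-like cells were in cycle at 6 of 220 (2.73%, 1.01 to 5.84%) in the mutant library and 2 of 132 (1.52%, 0.184 to 5.37%) in the control library. Pericyte-like cells were in cycle at 9 of 100 (9%, 4.198 to 16.4%) in the mutant library and 3 of 117 (2.56%, 0.532 to 7.31%) in the control library, and these intervals overlapped. Smooth muscle-like cells were in cycle at 3 of 129 (2.33%, 0.482 to 6.65%) and 3 of 108 (2.78%, 0.577 to 7.90%). Adventitial fibroblast-like cells were in cycle at 0 of 36 in the mutant library, which allows up to 8.33% (3 of 36), and at 2 of 55 (3.64%, 0.443 to 12.5%) in the control library. In the control library 1 further cluster, led by Fgf9 and Aspn, had 0 of 151 cells in cycle, which allows up to 1.99% (3 of 151).

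Clustered together, the libraries stood apart. Of the mutant cycling cells 23 of 54 fell in cluster 4, which held 258 mutant and 2 control cells, and of the control cycling cells 28 of 47 fell in cluster 2, which held 7 mutant and 283 control cells. Clusters of 1 library may be that library rather than a cell type. Within each library's own most dividing cluster, the alveolar fibroblast medians were -0.54 in the mutant and 0.01 in the control library and the adventitial medians -1.14 and 0.42. These rest on 5 and 4 measured genes in the mutant and 6 and 5 in the control library. The G2 and M phase medians there were 5.52 and 6.06. Within a cluster the cell cycle lists were still higher, while in the control library the medians of both fibroblast lists were above 0.

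**Figure D3:**
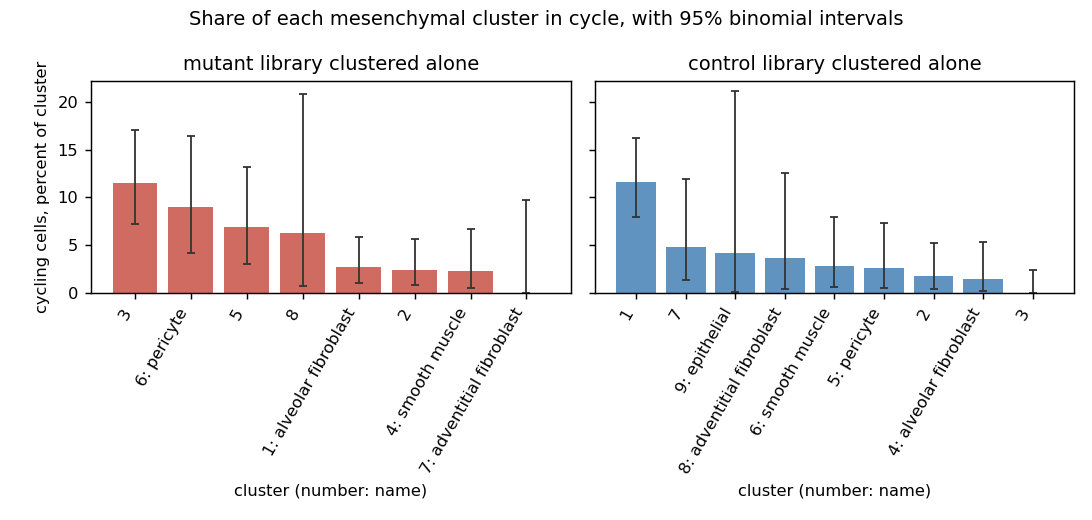
Share of each cluster's cells that were in cycle (y axis, percent), with each library clustered alone, mutant library left and control library right. Bars carry exact 95% binomial intervals, clusters are ordered by share, and a cluster with a name is like that type by its markers. Cluster 3 of the mutant library (11.5%) and cluster 1 of the control library (11.6%) are highest.

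Between genotypes, cycling cells were compared over 6104 genes with at least 20 UMIs in the 54 mutant and 47 control cells together. At least 2-fold higher in the mutant cells were 620 genes (10.2%), and at least 2-fold lower were 355 (5.82%). Neither cell cycle program as a whole lay far from all genes, with median log2 ratios of mutant over control of -0.05 for G2 and M phase and -0.22 for S phase genes, against 0.02 for all measured genes. In G2 and M phase 9 of 63 measured genes were at least 2-fold higher and 3 at least 2-fold lower, and in S phase 3 and 5 of 52, shares near the background. An alternative chosen after seeing the data was limited to each library's most dividing cluster, with 21 mutant and 29 control cells. There 310 of 4039 genes were at least 2-fold higher and 429 at least 2-fold lower, so the direction that held more genes changed. The summed UMIs also differed more there, at 173021 in mutant and 345051 in control cells, and the part of cluster or depth was not tested.

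Single mitotic genes nonetheless differed by more than their counting error. Cenpe, the centromere motor, had 302 CPM (252 to 358) in mutant and 119 CPM (90.8 to 154) in control cells. Cenpf, a large kinetochore protein, had 644 and 311 CPM, Hmmr 254 and 97.1 CPM, and Ckap5, a microtubule polymerase, 126 and 36.4 CPM. In the other direction, Cdk1, the mitotic kinase, had 247 CPM (202 to 298) in mutant and 548 CPM (485 to 617) in control cells. Cdc20, the activator of the anaphase-promoting complex, had 139 CPM (107 to 179) in mutant and 277 CPM (233 to 327) in control cells. Kpna2, an importin, had 36.6 CPM (20.9 to 59.4) in mutant and 156 CPM (123 to 195) in control cells. Kpna2 is outside the G2 and M phase list and its counts. The 3 genes that chose the cells are given as description only: Mki67 had 797 CPM in mutant and 291 CPM in control cells, Top2a 992 and 649 CPM, and Birc5 448 and 510 CPM.

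These differences went with transcript length. The 9 G2 and M phase genes at least 2-fold higher in mutant cells had longest annotated transcripts of 4939 bases at the median, and the 3 at least 2-fold lower 2842 bases. Over all measured genes the medians were 5598.5 bases for those at least 2-fold higher, 2450.5 bases for those at least 2-fold lower and 3117 bases for the rest. Genes with transcripts of 5000 bases or more had a median log2 ratio of 0.56, and those under 2000 bases -0.17. The same order was seen in non-cycling mesenchymal cells, at 0.40 and -0.17, in cycling endothelial cells, at 0.51 and -0.09, and in cycling epithelial cells, at 0.47 and 0.06. The direction of Hmmr, Cenpe and Cdk1 was also the same in cycling endothelial cells, at log2 ratios of 1.32, 1.14 and -0.65. The part of transcript length in these results was not tested, and a property of the library and an effect of the genotype cannot be told apart with 1 library each.

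Among S phase genes 34 of 52 measured were lower and 18 higher in the mutant cells. Over all 6104 measured genes 2993 were lower and 3111 higher. Mcm7, a subunit of the replicative helicase, had 48.0 CPM (29.7 to 73.3) in mutant and 127 CPM (97.9 to 163) in control cells. Rrm2 had 176 CPM (139 to 220) in mutant and 376 CPM (324 to 434) in control cells. Pola1, the catalytic subunit of DNA polymerase alpha, was opposite, with 66.3 CPM (44.4 to 95.2) in mutant and 20.2 CPM (9.70 to 37.2) in control cells.

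Clustered histone genes stood high among the differences. Of 35 listed, 13 were measured, 9 at least 2-fold higher and 2 at least 2-fold lower in mutant cells, with a median log2 ratio of 1.85. Hist1h1e, a linker histone, had 994 CPM (903 to 1092) in mutant and 44.5 CPM (27.9 to 67.3) in control cells, a ratio of 22.3 (14.6 to 36.0). Hist1h1b, another linker histone, had 761 CPM (681 to 847) in mutant and 48.5 CPM (31.1 to 72.2) in control cells. Hist1h1a had 46 UMIs in mutant and 0 in control cells, at least 17.3-fold higher when 3 UMIs are set over the control cells. Hist1h1d had 80.0 CPM (55.7 to 111) and 4.04 CPM (0.490 to 14.6), and Hist1h4d, an H4 gene, 201 CPM (161 to 248) and 10.1 CPM (3.28 to 23.6). Hist1h2ap, an H2A gene, was opposite, with 103 CPM (75.0 to 138) in mutant and 324 CPM (275 to 378) in control cells. Core histone genes of a class are nearly identical, so reads of Hist1h4d and Hist1h2ap may belong to other copies.

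The histone difference was found well beyond the dividing mesenchyme. In non-cycling mesenchymal cells Hist1h1e had 98.7 CPM in the mutant and 4.65 CPM in the control library, and its log2 ratio was 4.41, close to the 4.48 of cycling cells. In cycling endothelial cells it was 3.79 and in cycling epithelial cells 3.06. The list medians were 0.69 in non-cycling mesenchymal, 0.98 in cycling endothelial and 0.76 in cycling epithelial cells. Hist1h2ap was lower in the mutant library in cycling endothelial and epithelial cells too, at -1.72 and -1.28. The histone list's cycling to non-cycling medians were 3.52 over 14 measured genes in the mutant library and 3.57 over 8 in the control library. Their intervals over genes were wide, at 1.86 to 6.75 and -0.04 to 9.98. Summed, the list had 3075 CPM in cycling and 320 CPM in non-cycling mutant cells, and 833 and 151 CPM in control cells.

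**Figure D4:**
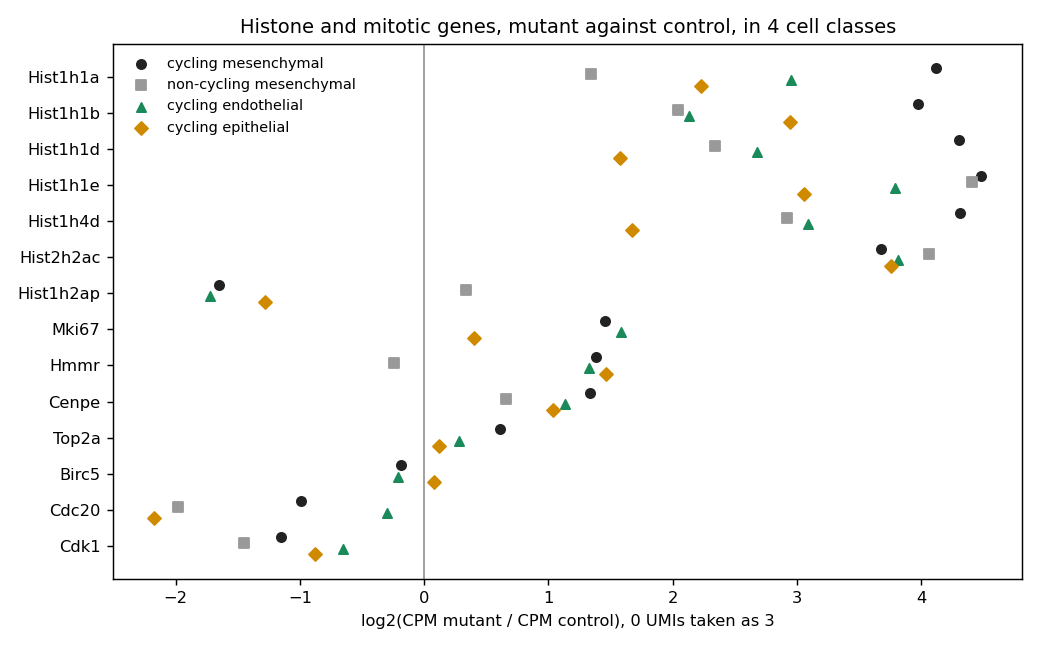
Log2 ratio of mutant over control CPM (x axis) for 7 histone genes and 7 mitotic genes in cycling mesenchymal, non-cycling mesenchymal, cycling endothelial and cycling epithelial cells, with a class at 0 UMIs taken as 3 UMIs and no point where the gene has none in either library. The linker histones lie right of 0 in every class shown, and Hist1h2ap left of 0 in the 3 cycling classes.

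Subtype genes differed as well. Pericyte genes had a median log2 ratio of 0.93 over 11 measured, 5 of them at least 2-fold higher in mutant cells and 0 at least 2-fold lower. Gucy1a3, a subunit of the nitric oxide receptor of mural cells, had 615 CPM (543 to 693) in mutant and 133 CPM (103 to 170) in control cells. Higd1b, a pericyte marker, had 377 CPM (322 to 439) in mutant and 89.0 CPM (64.6 to 119) in control cells, in 14.8% and 10.6% of them. Rgs5, a regulator of G protein signalling in pericytes, had 121 CPM (90.7 to 158) in mutant and 10.1 CPM (3.28 to 23.6) in control cells. In non-cycling cells the pericyte median was -0.02, with 0 of 14 past 2-fold in either direction. Over all 11895 genes measured there, 755 were at least 2-fold higher and 340 at least 2-fold lower. In each library's most dividing cluster the pericyte median was 0.17 over 5 measured genes, 2 of them at least 2-fold higher and 2 at least 2-fold lower. Over all 4039 genes measured in that comparison, 310 were higher and 429 lower by that much. The cycling cells themselves included 9 pericyte-like cells in the mutant library and 3 in the control library, so the pericyte values rest on few cells.

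Alveolar fibroblast genes had a median of 1.18 over 9 measured, 6 at least 2-fold higher and 1 at least 2-fold lower in mutant cells. Limch1, an actomyosin regulator, had 260 CPM (215 to 313) in mutant and 66.7 CPM (45.9 to 93.7) in control cells. Npnt had 121 CPM (90.7 to 158) in mutant and 34.4 CPM (20.02 to 55.0) in control cells. Lpl, lipoprotein lipase, was opposite, with 105 CPM (76.9 to 140) in mutant and 243 CPM (201 to 290) in control cells. The list's median was 0.60 in non-cycling cells and -0.0041 in the cells of each library's most dividing cluster, where 3 of its genes were measured. By transcript length, the cycling mesenchymal median was 2.00 for the 2 measured genes of 5000 bases or more. It was 0.90 for the 4 under 2000 bases and 1.25 for the 3 in between. In cycling endothelial and epithelial cells, genes of 5000 bases or more had medians of 1.02 and 1.49. Those under 2000 bases were at -0.43 and -1.50, and those in between at -1.45 and -1.25. The part of transcript length in this list was not tested.

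Muscle genes rested on few cells. Actc1, cardiac alpha actin, had 103 CPM (75.0 to 138) in mutant and 1066 CPM (977 to 1161) in control cells, but was found in 16.7% of mutant and 12.8% of control cells. Tnnt2, cardiac troponin T, had 4 UMIs in mutant and 71 in control cells, found in 3.70% and 4.26% of them. Of the smooth muscle list 2 of 11 measured genes were at least 2-fold higher and 3 at least 2-fold lower, with a median of -0.73, and in the most dividing clusters the median was 0.05 over 6. Tgfbi, a matrix protein induced by TGF-beta, had 491 CPM (428 to 561) in 61.1% of mutant cells and 1917 CPM (1797 to 2043) in 78.7% of control cells, and its log2 ratio of -1.96 stood beside -1.59 in non-cycling cells. Htra1, which led the dividing clusters of both libraries, had 605 CPM (535 to 683) in mutant and 1808 CPM (1691 to 1930) in control cycling cells, and -1.01 as its log2 ratio in non-cycling cells.

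The listed growth regulators did not lean to the mutant cells, with 6 of 17 measured higher, 11 lower and a median log2 ratio of -0.16. Over all 6104 measured genes 3111 were higher and 2993 lower. The 2 growth regulators at least 2-fold higher were H19 and Igf2. H19, an imprinted long noncoding RNA, had 176 CPM (139 to 220) in 35.2% of mutant cells and 26.3 CPM (13.996 to 44.9) in 14.9% of control cells. Igf2, the imprinted fetal insulin-like growth factor, had 24 UMIs in mutant and 0 in control cells, at least 9.04-fold higher with 3 UMIs set over the control cells. Peg3, an imprinted zinc finger factor outside that list, had 117 CPM (86.8 to 153) in mutant and 24.3 CPM (12.5 to 42.4) in control cells. In non-cycling cells the log2 ratios of these genes were 0.97, 2.15 and 1.03.

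Immediate early genes, which answer growth factors and tissue handling alike, had a median log2 ratio of -0.65, with 0 of 17 at least 2-fold higher and 5 at least 2-fold lower. Ier2 had 121 CPM (90.7 to 158) in mutant and 350 CPM (299.6 to 406) in control cells, and Junb, a subunit of AP-1, 187 CPM (149 to 233) and 491 CPM (431 to 557). The same list had -0.63 in non-cycling mesenchymal, -0.65 in cycling endothelial and -1.09 in cycling epithelial cells. Hspa1a, the inducible Hsp70, had 43.4 CPM (26.1 to 67.8) in mutant and 253 CPM (210 to 301) in control cells, against 91.8 and 461 CPM in non-cycling cells.

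RNA of other cell types was present at low levels and differed between libraries. Of 20 listed epithelial genes 3 were at 0 in the mutant and 4 in the control cycling cells, and the list summed to 1012 CPM in mutant and 3154 CPM in control cells. Sftpc, surfactant protein C of alveolar type 2 cells, was found in 55.6% of mutant and 100% of control cycling cells, and in 54.6% and 100% of non-cycling cells. Without Sftpc and Scgb1a1, the median cell had 1 epithelial UMI in the mutant library and 2 in the control library, and 2 cells in each library had 10 or more, the highest 65 and 89. The immune list summed to 292 CPM in mutant and 180 CPM in control cells. A single mutant cell held most of it, with 106 UMIs of 19 immune genes other than Lyz2, among them 16 of Cd79a and 8 of Ms4a1, which are B cell genes, beside 18 of Col1a2. Without the 3 mutant and 2 control cells rich in epithelial or immune UMIs, an alternative chosen after seeing the data, the counts of genes past 2-fold moved by less than 1.5 times. The endothelial list never exceeded 5 UMIs in a mutant and 8 UMIs in a control cell. The part of such RNA in the results was not tested. Nkx2-1 itself, an epithelial gene, had 5 UMIs in mutant and 4 in control cycling cells, so its state cannot be read in them.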

How the data were processed

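Raw UMI counts per gene and barcode, deposited by the authors for 1 mutant and 1 control library, were used as they stand. Per the labels' protocols the libraries were 10x Genomics 3' version 2, and per the submitters' processing notes Cell Ranger and Seurat were used with build mm10 (neither the labels nor the notes state versions or how reads matching several genes were counted). The members and gene lists were chosen with earlier results of these data known.

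For each class of cells, gene sums were scaled to the class total (CPM). A gene with at least 20 UMIs over both classes was measured, and a 2-fold difference was the call. Intervals are exact at 95%; a limit beside a count of 0 is 3 cells of the total. A class at 0 was set to 3 UMIs. With 1 library a group no test was run. Cells were thinned to 2000 UMIs for shares and phases. Clusters came from scanpy 1.11.5 and leidenalg 0.10.2 (2000 variable genes, 30 components, 20 neighbours, resolution 1), and a cluster was named from 3 or more detected markers and a mean log2 fold of at least 1, a limit set after seeing the data. Doublets were scored with Scrublet. Its own threshold marked 10 control cells of 4141 (0.241%), so the top scores at 0.8% per 1000 cells were taken, 156 mutant and 137 control cells, and none was removed.

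Named genes were the 2 with the highest level and the 2 with the largest ratio among measured genes of each list, the 10 largest and 10 smallest ratios of a comparison among genes with at least 50 UMIs and 100 CPM, the genes of the rule and Nkx2-1. Ube2c, Pcna, Ccnd2, Gas6, Cenpe, Cenpf, Cdk1, Cdc20, Hist1h1a, Hist1h1d and Htra1 fall outside that rule and were chosen after their values were seen. Transcript lengths are of the longest annotated transcript. Total UMIs were 437714 in the mutant and 494569 in the control cycling cells. Alternatives covered the rule's limits, thinning, the gene filter, deeper reference cells, cells rich in other types' RNA and single clusters.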

Additional observations from a re-analysis of the deposited data

Results flagged for a closer look

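For 2 genes the ratio of cycling over non-cycling mesenchymal cells went in opposite directions in the 2 libraries. The difference was not tested, since each group is 1 library. Cd52, a small surface glycoprotein of lymphocytes, had a log2 ratio of 2.42 in the mutant library and -1.51 in the control library. Of its 38 UMIs in mutant cycling cells, 37 were in the 1 cell that also held B cell genes. Tnnt2 had a log2 ratio of -1.82 in the mutant library and 2.29 in the control library, where its 71 UMIs were in 4.26% of the cycling cells.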

How the results depend on the processing

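No paired analysis was possible because each group is 1 library. Of 372 alternative values of 33 leading results, 326 held, 42 moved and 4 reversed. A count of genes held within 1.5 times, and a share within its binomial interval. A median held within an interval over its genes or cells, or within the full range for a short list, which is wider than counting error. A reversal was called only where the main ratio was 2-fold or more. Of 482 values of 40 single genes, 423 held, 57 moved and 2 reversed, Actc1 at 2.86 and Scgb1a1 at 4.06 as log2 ratios of mutant over control when the rule was applied after thinning. The cause was not tested for any of these.

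The share in cycle was 3.88% of mutant and 2.01% of control cells with the rule applied after thinning, and 7.44% of mutant cells at 2 UMIs. Without thinning the S phase medians were 30.5 UMIs in mutant and 53 in control cells and the G2 and M phase medians 119 and 158; at 2 UMIs the mutant G2 and M phase median was 20.5.

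For cycling over non-cycling cells in the mutant library, the genes at least 2-fold higher were 547 with a filter of 50 UMIs, 5235 with 1 UMI and 499 in the most dividing cluster. Those lower were 600 against deeper cells and 640 in that cluster. The alveolar fibroblast median was -1.07 after thinning and -0.54 in the cluster. G2 and M phase medians were 5.37 against deeper cells and 5.52 in the cluster, and the S phase median there was 2.27. In the control library the higher genes were 2103 after thinning, 588 with 50 UMIs, 5381 with 1 UMI and 591 against deeper cells. The lower genes were 508 against deeper cells and 769 in the cluster. Collagen medians were -0.47 after thinning and -0.30 against deeper cells, alveolar fibroblast -0.42 against deeper cells, G2 and M phase 5.43 against deeper cells and 6.06 in the cluster, and S phase 1.99 and 2.52. In the cluster the alveolar and adventitial fibroblast medians reversed, to 0.011 and 0.42.

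For mutant over control cycling cells, 183 genes were higher and 115 lower with 50 UMIs, 2479 and 1918 with 1 UMI, and 310 were higher in the cluster. The G2 and M phase median was -0.29 at 2 UMIs and -0.38 in the cluster. The alveolar fibroblast median reversed to -0.0041 in the cluster. The epithelial median was -3.38 with 20 collagen UMIs, -0.15 with a filter of 1 UMI, -3.31 in the cluster and -2.78 without cells rich in epithelial or immune UMIs, and it reversed to 2.94 with the rule after thinning. The alternatives by cluster and without such cells were chosen after seeing the data.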
